A study of Mus musculus with 2 samples.

Results

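Mir21a and Mir31, a pair of microRNA (miRNA) genes associated with epithelial growth, were examined in the stomach of mouse embryos. They were taken by name, 2 of the 1973 genes in the deposited count tables, on the strand that held the larger total, and both were found. Small RNA under 30 nucleotides was sequenced from 2 libraries, biological replicates 1 and 2 of 1 group. Each library came from pooled stomachs of healthy embryos of strain B6NCrl at 16.5 days, male and female together. Replicate 2 was a pool of 41 embryos, and the labels used here give no number for replicate 1. The series holds no second age, tissue or treatment, so the values below describe levels within this tissue and the difference between its 2 libraries. Both libraries carry the same donor label, so the spread between them may be partly technical.

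A miRNA is cut from a hairpin transcript and guides a silencing complex to messenger RNAs, mainly through its seed, bases 2 to 8 of the mature strand. miR-21 is among the most widely expressed mammalian miRNAs; it is raised in many epithelial tumours and in inflamed tissue, and it represses Pdcd4, a growth-restraining gene. miR-31 is known from proliferating epithelium, among others in skin and intestine, where it has been linked to Wnt signalling and to the hair cycle. Neither gene is restricted to epithelium, since miR-21 is also made by fibroblasts, smooth muscle and leukocytes.

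The mature strands of each hairpin are shown because the seed decides which messages a miRNA can pair with and because the deposited counts do not separate the arms. Sequences are RefSeq's for GRCm38.p6, written 5′ to 3′ with the seed in capitals. The miR-21b and miR-21c strands are included as the only other miRNAs in the table named after miR-21.
miR-21a-5p: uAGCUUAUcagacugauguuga
miR-21a-3p: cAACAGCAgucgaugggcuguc
miR-31-5p: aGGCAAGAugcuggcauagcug
miR-31-3p: uGCUAUGCcaacauauugccauc
miR-21c: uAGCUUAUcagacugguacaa
miR-21b: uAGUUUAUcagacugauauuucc

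The seeds of the 5p and 3p strands of Mir21a and Mir31 all differed. Among 1738 mature mouse strands in the RefSeq table, the miR-21a-5p seed was found in 2 genes, Mir21a and Mir21c. The seed of miR-21a-3p and both miR-31 seeds were each found in 1 gene alone. Mir21b differs from Mir21a within the seed itself, so it falls outside that family despite its name.

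The seed relative contributed no counted read. Mir21c stood at 0 reads in each library. For uniquely placed reads, a floor of 3 counts per library was set by choice and is not a measured bound. In CPM (counts-per-million, over sense-assigned reads), that floor is 0.388 in replicate 1 and 0.376 in replicate 2. Mir21b had 0 reads in replicate 1 and 2 in replicate 2. Mir21a stood 39716-fold above that floor in replicate 1 and 40569-fold above it in replicate 2. The longest stretch that the mature strand of miR-21a-5p shares with miR-21c is 15 bases, and with miR-21b it is 13 bases. The whole Mir21a hairpin shares at most 15 bases with any of 1004 other hairpins, and Mir31 at most 12. A full-length mature read of either gene therefore has no exact match in another hairpin of that table.

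Both genes lie on the minus strand inside the last exon of a longer gene. Mir21a occupies chr11:86584067-86584158 (GRCm38, the assembly that mm10 names; GENCODE M21) within exon 12 of Vmp1, a gene of autophagy. That exon runs from 86583865 to 86585451, and the hairpin sits in its annotated 3′ UTR, 202 bases from the 3′ end. Mir31 occupies chr4:88910557-88910662 within exon 3 of the long noncoding RNA AL805899.1, which runs from 88909855 to 88910710, and is 702 bases from the 3′ end. Of the 289 genes whose mean reached 10 CPM, 57 (19.7%) lie wholly inside an exon of a longer gene on the same strand. No other annotated miRNA gene was found within 50 kb of either hairpin, so neither belongs to a cluster at that distance.

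Both hairpins were longer, and predicted to be more stable, than the median hairpin. Mir21a measures 92 bases and Mir31 106 bases, against a median of 81 bases over 869 hairpins of the count tables with a RefSeq sequence. The predicted minimum free energy of folding was −46.2 kcal/mol for Mir21a and −48.7 kcal/mol for Mir31, against a median of −33.2 kcal/mol. Only 11.7% of the hairpins were predicted to be more stable than Mir21a, and 7.59% more stable than Mir31. A longer hairpin tends to have a lower energy, so the measures are linked. GC content was 45.7% for Mir21a and 50% for Mir31, both below the median of 52.3%.

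Mir21a was one of the major miRNA genes of the tissue by counted reads. It had 119148 sense reads in replicate 1 and 121707 in replicate 2, out of 7734578 and 7983714 sense-assigned reads. The level was 15405 CPM in replicate 1 and 15244 CPM in replicate 2, a mean of 15324 ± 113 CPM (SD, n = 2). It thus took 1.54% of the assigned reads in replicate 1 (95% interval by the exact Clopper-Pearson method 1.532% to 1.549%) and 1.52% in replicate 2 (1.516% to 1.533%). The libraries overlapped at the edge of these intervals, which cover counting error only, as no molecular identifiers are described for these reads. Mir21a ranked 16 in each library, and 97.9% of the 751 genes with a read stood below it by mean level. Multiply placed reads were left out, so genes with copies may be counted too low. The rank therefore holds for uniquely placed reads only.

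Mir31 was present at a moderate level. It had 5298 reads in replicate 1 and 5767 in replicate 2, which is 685 CPM and 722 CPM, with a mean of 704 ± 26.4 CPM (SD, n = 2). Its share was 0.0685% in replicate 1 (exact interval 0.0667% to 0.0704%) and 0.0722% in replicate 2 (0.0704% to 0.0741%). These intervals, of counting error only, lay just apart. The interval of replicate 1 ended at 0.07037% and that of replicate 2 began at 0.07038%. Mir31 ranked 115 in replicate 1 and 107 in replicate 2, and 85.5% of the genes with a read stood below it. The limit from multiply placed reads holds for this rank too. Its mean was 70.4 times the level of 10 CPM used as the limit for testing, whereas the median of the genes above that limit was 309 CPM.

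**Figure D1:**
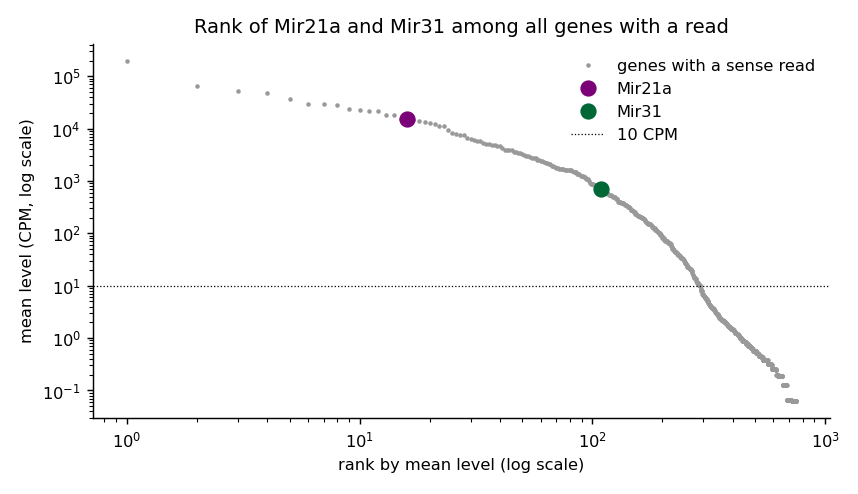
Mean level in CPM of the 751 genes with a sense read (y axis, log scale) against their rank (x axis, log scale), with Mir21a and Mir31 as large points and 10 CPM as a dotted line. Mir21a sits at rank 16 on the upper shoulder of the curve and Mir31 at rank 109, above the dotted line.

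Almost no read came from the opposite strand at either locus. Mir21a had 0 opposite-strand reads in replicate 1 and 1 in replicate 2, and Mir31 had 0 in each. Over all genes, opposite-strand reads made up 3.35% of gene-assigned reads in replicate 1 and 2.82% in replicate 2. Much of that share stood at a few genes without a sense read. Gm25301 alone had 85420 opposite-strand reads in replicate 1 and 69390 in replicate 2, and Gm25927 had 50847 and 42668. The pooled share is therefore not a background for single genes.

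Mir21a exceeded Mir31 by a wide margin in each library. The ratio of sense reads was 22.5-fold in replicate 1 and 21.1-fold in replicate 2, or 4.45 ± 0.06 on the log2 scale (SD, n = 2). A mature miRNA is read whole, so reads do not grow with hairpin length. Divided by that length all the same, the levels were 167 CPM per base for Mir21a and 6.64 CPM per base for Mir31, a ratio of 25.9-fold in replicate 1 and 24.3-fold in replicate 2. A total of 92 genes lay between them by mean level. Together the 2 genes held 1.61% of the assigned reads in replicate 1 and 1.60% in replicate 2. A bias of adapter ligation between miRNA sequences would be shared by both libraries, and its part in this ratio was not tested.

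The neighbours of Mir21a in the order of levels were not separated from it by the spread between libraries. Mir17, of the proliferation-linked miR-17-92 cluster, was next above at 16752 CPM in replicate 1 and 13967 CPM in replicate 2. Mir30e was next below at 15937 CPM and 12844 CPM. The ranges of 4 genes overlapped the narrow range of Mir21a, namely Mir17, Mir23a, Mir30e and Mirlet7d. Mir200c, of the epithelial miR-200 family, stood below Mir21a in both libraries, at 14910 CPM in replicate 1 and 13506 CPM in replicate 2.

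The place of Mir31 was less sharply set. Mir503, next above, had 686 CPM in replicate 1 and 797 CPM in replicate 2, and Mir674, next below, had 744 CPM and 662 CPM. Mir503 and Mir31 were nearly equal in replicate 1, at 5304 and 5298 reads. In replicate 2 Mir503 was higher, and the ranges overlapped. Mir674 was above Mir31 in replicate 1 and below it in replicate 2. The ranges of 10 genes overlapped that of Mir31, among them Mir206 and Mir451a, which have wide ranges of their own.

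The genes most like each member were named by the smallest Euclidean distance in log2(CPM + 1) over the 2 libraries, which for only 2 values reflects level almost alone. For Mir21a they were Mir17 at a distance of 0.17, Mir200c at 0.18, Mir30e at 0.25, Mir322 at 0.37 and Mir99b at 0.40. For Mir31 they were Mir503 at 0.14, Mir125b-2 at 0.15, Mir674 at 0.17, Mir195a at 0.20 and Mir542 at 0.31. The level of a gene with a copy elsewhere, such as Mir125b-2, may be too low because multiply placed reads were left out.

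**Figure D2:**
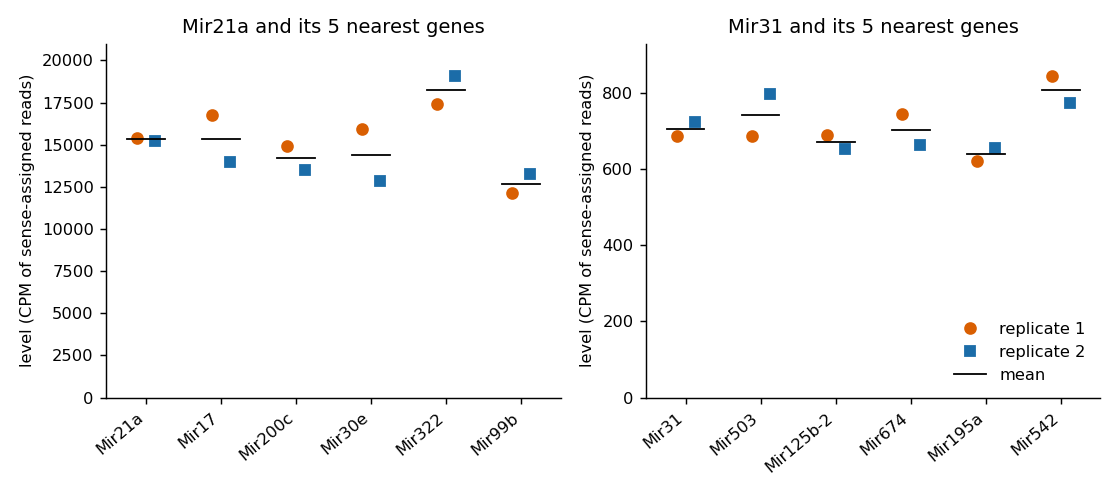
Level in CPM (y axis, linear from 0) of Mir21a (left) and Mir31 (right), each beside its 5 nearest genes, with replicate 1 as circles, replicate 2 as squares and the mean as a line. The points of Mir21a nearly coincide at 15405 and 15244 CPM, and those of Mir31 stand at 685 and 722 CPM.

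The levels of both genes in the 2 libraries were close in CPM, and less so after rescaling. In CPM, the SD was 0.739% of the mean for Mir21a and 3.76% for Mir31, against a median of 12.6% over the 289 genes whose mean reached 10 CPM. Of those genes, 5 had a smaller relative SD than Mir21a and 42 a smaller one than Mir31. After scaling by trimmed mean of M values (TMM), the log2 ratio of replicate 1 over replicate 2 was −0.17 for Mir21a (95% interval −0.18 to −0.16) and −0.26 for Mir31 (−0.31 to −0.20). The median absolute log2 ratio over the 289 genes was 0.24, and 180 of them had a larger ratio in size than Mir21a, as had 133 than Mir31. With TMM, Mir31 was thus slightly above the median gene in the size of its ratio, and Mir21a below it.

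Neither gene was called as different between the libraries, which required an adjusted p under 0.05 and a fold of at least 2. By that rule 23 of the 289 genes (7.96%) were called, 21 higher and 2 lower in replicate 1. With no minimum fold, two-sided exact binomial tests with Benjamini-Hochberg adjustment over all 289 genes gave an adjusted p of 9.18e-177 for Mir21a and 1.23e-20 for Mir31. That rule passed 220 of the 289 genes (76.1%), so passing it is common at this depth. The test compares 2 libraries, not conditions, and carries counting error alone.

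The direction for Mir21a depended on the scaling. With total assigned reads in place of TMM its log2 ratio was 0.015, and that of Mir31 was −0.08. Over the 289 genes the median log2 ratio was 0.21 with total assigned reads and 0.02 with TMM. Changing the scaling adds the same amount to every gene, so the signed distance of both genes from the median is not affected by it. The size of a ratio does change, so the order by size given above holds for TMM only.

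**Figure D3:**
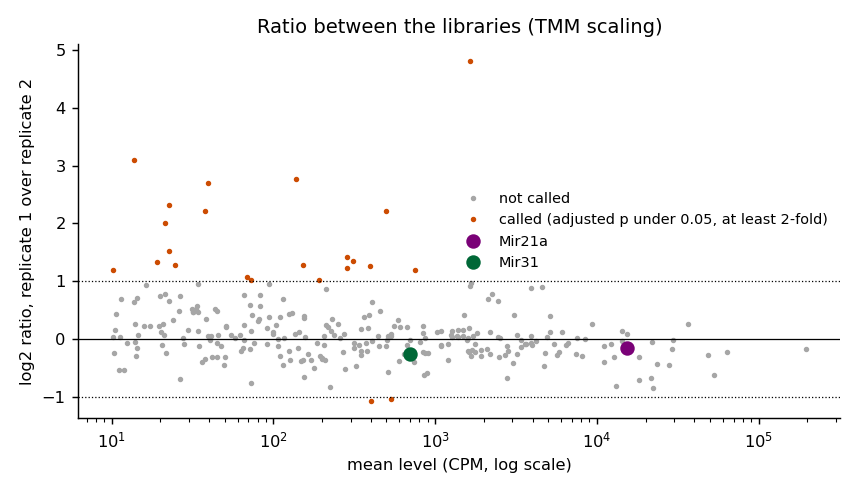
Log2 ratio of replicate 1 over replicate 2 with TMM scaling (y axis) against mean level in CPM (x axis, log scale) for 289 genes, called genes in orange and dotted lines at 2-fold. Mir21a at −0.17 and Mir31 at −0.26 lie within the main cloud of uncalled genes.

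Levels were set beside miRNA genes that mark cell types. In bulk tissue a lower level can reflect fewer cells of a type or less RNA per cell, which cannot be told apart. Mir21a amounted to 30.3% of the summed miR-200 family, a marker of epithelium, in replicate 1 and 29.8% in replicate 2. Mir31 amounted to 1.35% of it in replicate 1 and 1.41% in replicate 2. All 5 genes of that family stood above Mir31, and 1 of them, Mir429, stood above Mir21a.

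Against Mir203 and Mir205, which mark stratified epithelium such as that of the mouse forestomach, Mir21a reached 53.9% of their sum in replicate 1 and 39.9% in replicate 2. Mir31 reached 2.40% in replicate 1 and 1.89% in replicate 2. The sum of that list was 28558 CPM in replicate 1 and 38234 CPM in replicate 2. The difference lay in Mir203, at 17200 CPM in replicate 1 and 27343 CPM in replicate 2, while Mir205 had 11359 CPM and 10891 CPM in the same order. Against the gut epithelial genes Mir192, Mir194-1, Mir194-2 and Mir215, Mir21a was 369% of the sum in replicate 1 and 404% in replicate 2, and Mir31 was 16.4% and 19.1%. Mir194-1 and Mir194-2 are copies, and reads placed at both would be missing here. That sum may therefore be too low and these percentages too high.

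Markers of other cell types differed widely in level. Smooth muscle genes together held 202084 CPM in replicate 1 and 197398 CPM in replicate 2, nearly all of it Mir143. The sum hides Mir145a, which had 5317 CPM in replicate 1 and 2540 CPM in replicate 2. The endothelial gene Mir126a stood at 29029 and 29049 CPM in the same order, and the mesenchymal list, led by Mir214, at 9313 and 7559 CPM. Within the mesenchymal list, Mir199b had 2300 CPM in replicate 1 and 1040 CPM in replicate 2. Mir199a-1 and Mir199a-2 averaged 11.4 and 107 CPM. They are copies, and reads placed at both would be missing here, so the mesenchymal sum may be too low. Leukocyte genes, led by Mir223, summed to 1355 and 1247 CPM, with Mir142 lacking a row of its own. Mir122 of hepatocytes stood at 1821 and 1210 CPM, and Mir137, the only neuronal marker with reads, at 1399 and 1126 CPM, while Mir124a-1, Mir124a-2 and Mir124a-3 were at 0. The Mir124a genes are copies with the same mature strand, so multiply placed reads would be missing here and the 0 does not show absence.

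The lists that differed most between the libraries were those of striated muscle and erythroid cells. Striated muscle genes, led by Mir206, together held 3362 CPM in replicate 1 and 202 CPM in replicate 2, with 3 of the 4 tested genes called higher in replicate 1, beside 7.96% of all genes called in either direction. Among the 8 genes of that list with a row, Mir133a-1 and Mir133a-2 were at 0. These are copies with the same mature strand, whose reads would be placed at more than 1 position, so the 0 does not show that they were silent. Erythroid genes, led by Mir451a, together held 1240 CPM in replicate 1 and 591 CPM in replicate 2, with 1 of 3 tested genes called, beside 7.96% of all genes. That difference was Mir451a alone, at 1086 CPM in replicate 1 and 418 CPM in replicate 2. Mir144 had 139 CPM in replicate 1 and 159 CPM in replicate 2, and Mir486 had 15.8 and 13.3 CPM in the same order. Mir21a and Mir31 showed no difference of that size, and the contribution of any cell type to their levels was not tested.

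**Figure D4:**
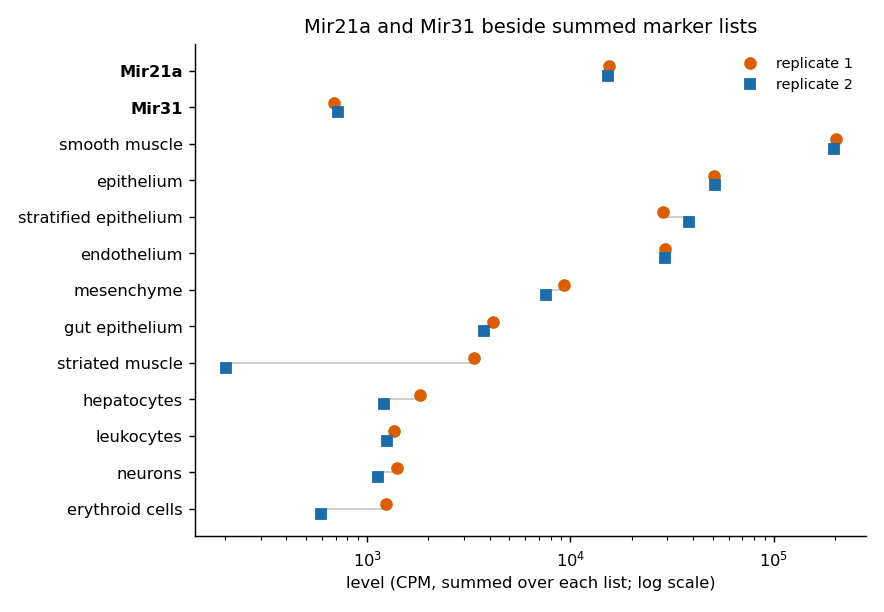
Level in CPM (x axis, log scale) of Mir21a and Mir31, in the top rows, and summed level of each list of cell type markers below them, with replicate 1 as circles and replicate 2 as squares. Mir21a lies between the endothelial and the mesenchymal list, and Mir31 lies below the lists of leukocytes and neurons in both libraries. Sums of lists that hold copies, such as the mesenchymal list, may be too low because multiply placed reads were left out.

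Mir21a and Mir31 were then placed among 16 other miRNA genes known from proliferating or transformed epithelium. Of these, 14 reached 10 CPM in both libraries, beside 277 of all 1973 genes, 751 of which had a read. The list holds well-known genes, so its higher share is not a result about growth. Mean levels of the 16 ran from 0.253 CPM for Mir146b to 15359 CPM for Mir17. Mir31 itself ranked 109 among all genes by mean level. By mean level only Mir17 stood above Mir21a, and not in replicate 2. Of the 16 genes, 7 stood above Mir31, which were Mir17, Mir18, Mir20a and Mir92-1 of the miR-17-92 cluster, Mir93 and Mir106b of its paralog cluster, and Mir210, a gene induced by hypoxia.

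Mir93 averaged 6403 ± 246 CPM, Mir20a 6081 ± 918 CPM and Mir106b 4773 ± 161 CPM (SD, n = 2 each). Mir18 stood at 2795 ± 91.3 CPM, Mir92-1 at 2438 ± 981 CPM and Mir210 at 845 ± 20.6 CPM. These 6 genes fill part of the gap between Mir21a and Mir31, and genes of 1 cluster share a primary transcript, so they are not independent of each other.

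The other 9 genes stood below Mir31. Mir25 averaged 448 ± 13.9 CPM, Mir221 210 ± 18.7 CPM and Mir222, its neighbour and a repressor of the cell cycle inhibitor p27 in human cells, 114 ± 14.9 CPM. Mir135b, known from colorectal tumours in human tissue, averaged 127 ± 11.1 CPM. Genes known to be induced by inflammatory signalling followed, with Mir146 at 116 ± 11.3 CPM, Mir155 at 65.9 ± 13.8 CPM and Mir146b with 1 read in replicate 1 and 3 in replicate 2. Mir19a averaged 40.6 ± 3.16 CPM and Mir19b-1 6.97 ± 2.90 CPM.

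Some of these values are limited by shared sequence. Mir19b-1 shares 25 bases with Mir19b-2, Mir92-1 shares 22 with Mir92-2, and Mir146 and Mir146b share 21 with each other, and reads placed at several hairpins are probably in none of these counts, because the tables total multiply placed reads separately.

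Between the libraries, 0 of the 14 tested genes of this list were called at 2-fold, beside the 7.96% of all genes, and their median log2 ratio was −0.11 against 0.02 for all genes tested. Without a minimum fold, 4 were higher and 8 lower in replicate 1 by the exact binomial test with Benjamini-Hochberg adjustment, and 2 passed in neither direction. By the same rule 76.1% of all tested genes passed, 111 higher and 109 lower. These splits carry the dependence on scaling given above.

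**Figure D5:**
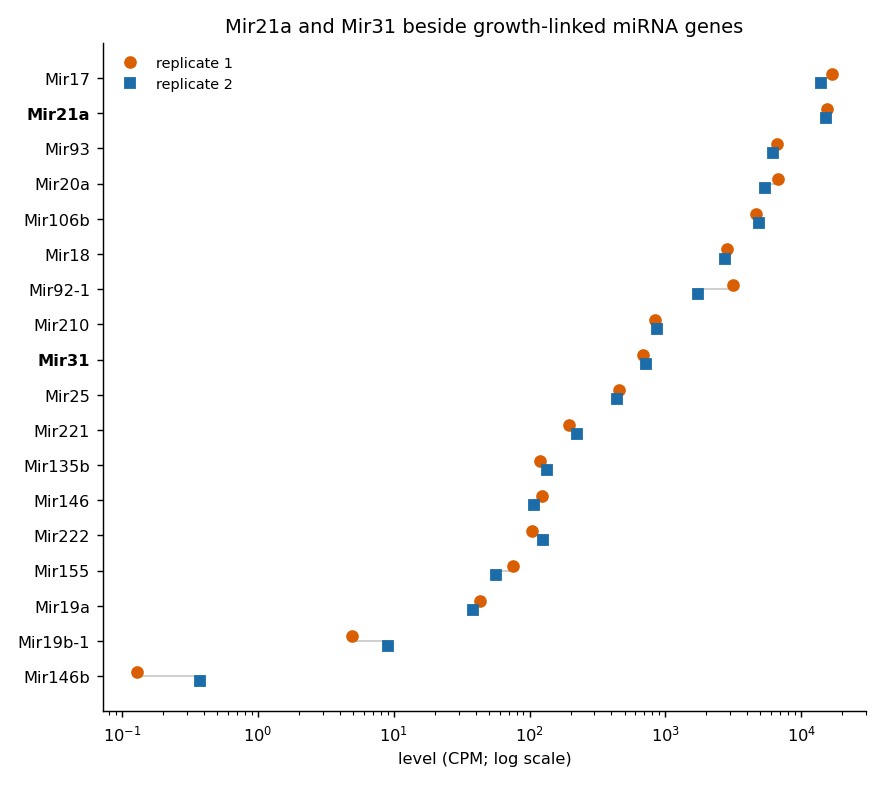
Level in CPM (x axis, log scale) of Mir21a, Mir31 and 16 growth-linked miRNA genes ordered by mean level, with replicate 1 as circles and replicate 2 as squares. Mir17 and Mir21a lead the order at means of 15359 and 15324 CPM, and Mir31 stands between Mir210 and Mir25.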

How the data were processed

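The authors deposited, per library, raw read counts for 1973 genes with 4 summary totals. The build is mm10 and the annotation GENCODE M4, per the file headers. For the aligner, counter and trimming, the tool and version were not given in the sources used here. Counts cover whole hairpins and come regardless of strand, sense and opposite. Multiply placed reads (25.1% of all reads in replicate 1, 25.2% in replicate 2) and unmapped reads (21.3% and 20.3%) form totals of their own and were left out. Of 15746238 and 15958656 reads, 49.1% and 50.03% were sense-assigned.

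Symbols came from GENCODE M21 (1894 of 1973 identifiers matched), sequences from RefSeq. TMM factors were computed over genes whose mean reached 10 CPM (edgeR 4.0.16, R 4.3.3), alternative size factors with DESeq2 1.42.0, with 0.5 added to counts in ratios. Exact binomial tests compared the libraries and were tested on simulated data. The simulated counts held counting error alone, so that check does not cover any further spread between real libraries. Folding used ViennaRNA 2.7.2. Other work used Python 3.11.15, numpy 2.4.6, pandas 2.3.3, scipy 1.17.1 and matplotlib 3.10.9.

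The genes, the lists and the rule for naming genes were chosen with earlier results of these data known. The rule took Mir21a and Mir31, the 5 nearest genes to each in level, rank neighbours, genes sharing a seed or lying within 50 kb, the growth-linked genes and the highest gene of each marker list. Alternatives were the strand counted, other scalings, filters, pseudocounts and lists, and each library left out.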

Additional observations from a re-analysis of the deposited data

How the results depend on the processing

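Mir21a stood at 14852 CPM counted regardless of strand and 19056 CPM without Mir143 in the total; Mir31 stood at 875 CPM without Mir143. The denominator's construction sets these shifts. With each library left out, Mir21a ranged from 15244 to 15405 CPM and Mir31 from 685 to 722 CPM; 1 library has no spread. The log2 ratio of Mir21a over Mir31 was 4.65 per base of hairpin, and stayed between 4.40 and 4.49 with a library left out, another pseudocount or both strands. Mir21a over the miR-200 family, −1.73 on the log2 scale, became −1.11 over miR-203 with miR-205 and 1.95 over the gut epithelial genes; Mir31, at −6.18, became −5.55 and −2.50. These compare with lists of other levels, and the gut epithelial sum may be too low because Mir194-1 and Mir194-2 are copies. With a library left out the miR-200 values ranged from −1.74 to −1.72 and from −6.22 to −6.14.

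Between the libraries, the log2 ratio of Mir21a was 0.015 with total-read scaling, a reversed direction, and Mir31 kept its direction in every alternative tried. With no minimum fold both genes passed, at −0.17 and −0.26, and 220 genes differed; without a filter on low counts 55 of 751 did. The other alternatives gave 21 to 29 genes. No paired analysis was possible because the series has 1 group. Values near the floor of 3 counts, such as those of Mir21b and Mir146b, are limited by depth.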
